A study of Homo sapiens with 6 samples.

Results

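The ASPP genes and the p53 relatives TP63 and TP73 were followed in HCC-LM3 hepatocellular carcinoma cells in which one ASPP gene, TP53BP2, had been targeted by RNA interference. Members were all array features whose gene identifier in the files maps to TP53BP2, PPP1R13B, PPP1R13L, TP63 or TP73. Where an identifier did not map, the accession or the gene name in the files was used. This gave 8 features for the 5 genes, out of 45033 features for 23593 named genes. TP53BP2, PPP1R13L and TP63 had a pair of features each, and PPP1R13B and TP73 had a single one. The files carry TP63 under its older name TP73L.

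The 6 samples are total RNA from HCC-LM3, an established human hepatocellular carcinoma line. The shASPP2 group (n = 3) was infected with a lentivirus carrying a short hairpin RNA against ASPP2, and the shNon group (n = 3) with a lentivirus carrying a control hairpin, so that all samples share infection. RNA was taken 1 week later, per the labels, from 3 separate cultures a group. The labels name 1 construct for each group, and the hairpin sequences were not analysed here. Each sample was read on its own 1-colour NimbleGen array.

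ASPP proteins are named after their ankyrin repeats, SH3 domain and proline-rich region, and the ankyrin and SH3 part binds p53 and its relatives. ASPP1 and ASPP2 steer p53, p63 and p73 towards genes of apoptosis, while iASPP holds p53 back. All ASPP proteins also bind the catalytic subunit of protein phosphatase 1, from which their gene names PPP1R13 derive, and ASPP2 works with PAR-3 at epithelial junctions. TP63 is best known as a master regulator of squamous and basal epithelia, and TP73 for its part in multiciliated cells and neurons. Both genes make long forms and shorter forms without the N-terminal activation domain, and the files do not place the probes within the transcripts, so the forms could not be separated.

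Every feature is set against the random-sequence probes of its own array, which match no transcript. Their level was between 30.4 and 30.8 on the shASPP2 arrays and between 31.8 and 33.3 on the shNon arrays. A feature was counted as above this level where its signal was over 2 times as high, as were 58.9% to 60.9% of features on each array. By this measure 6 of the 8 member features were above it in at least 1 group, all but those of TP63. The shNon arrays varied more than the shASPP2 arrays, with a median SD of 0.23 log2 in shASPP2 and 0.31 log2 in shNon over all features. Of 12 hepatocyte markers, 6 lay above the level in at least 1 group, among them the transcription factor gene HNF4A. Albumin (ALB) barely did, with 63.1 to 71.9 in shASPP2 and 82.4 to 93.1 in shNon, and APOA1, APOA2, APOB, TTR, SERPINA1 and AHSG did not. The summed hepatocyte signal was between 7878 and 8922 in shASPP2 and between 9463 and 11270 in shNon. FGB, the fibrinogen beta chain gene, averaged 1128 in shASPP2 and 3727 in shNon and was the only one of the 12 to pass (log2 fold change -1.73, SE 0.188, limma adjusted p = 0.0336, and 0.0968 to 0.268 when 1 array was left out). Without FGB the sum was 6547 to 7895 in shASPP2 and 5950 to 7213 in shNon, and HNF4A averaged 3794 in shASPP2 and 2562 in shNon. Groups did not overlap for 58.3% of the 12 hepatocyte markers, against 18.8% of all genes. In shASPP2, 3 of these were higher (HNF4A, TTR and SERPINA1) and 4 lower (FGB, TF, ALB and APOA2). Markers of squamous and basal epithelium lay above the level for 5 of 10 genes, summing to 1484 to 1534 in shASPP2 and 1362 to 1620 in shNon. The numbers were 2 of 6 for leukocytes and 6 of 7 for endothelium and fibroblasts, and the last sum was 1497 to 1785 in shASPP2 and 2342 to 2674 in shNon. Without PECAM1, an adhesion molecule gene, it was 546.6 to 721.4 in shASPP2 and 554.6 to 747.0 in shNon. PECAM1 itself had 815.4 to 1063.5 in shASPP2 and 1769.0 to 1927.2 in shNon, without overlap. Its log2 fold change was -0.96 (SE 0.183, limma adjusted p = 0.158, and 0.00123 with limma's trend and robust variance options). The part of these markers in the results below was not tested.

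TP53BP2, which encodes ASPP2, was lower in shASPP2 on both of its features, and the groups did not overlap on either. The brighter feature, NM_001031685 (chromosome 1, 222034412 to 222100255 on hg18), had intensities of 228.0, 215.9 and 147.3 on shASPP2 arrays 1, 2 and 3, against 332.0, 488.4 and 452.4 on shNon arrays 1, 2 and 3. The dimmer feature, NM_005426 (222034413 to 222100242), had 131.8, 91.9 and 126.1 in shASPP2, against 288.6, 345.7 and 284.7 in shNon. The lowest array was shASPP2 array 3 on the brighter feature and shASPP2 array 2 on the dimmer one, so the features did not rank the knockdown arrays alike. Each shASPP2 array kept between 34.7% and 53.7% of the shNon mean on the brighter feature and between 30.0% and 43.0% on the dimmer one.

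The fitted log2 fold change (limma, shASPP2 minus shNon) was -1.11 (SE 0.249) for NM_001031685 and -1.41 (SE 0.209) for NM_005426. This left 46.2% of the shNon signal (95% interval 30.9% to 69.2%) on the brighter feature and 37.8% (95% interval 26.9% to 53%) on the dimmer one. Their adjusted p-values in limma were 0.203 and 0.0991, over all 45033 features, so neither passed the threshold of 0.05. With limma's trend and robust variance options both passed, at 0.0225 and 0.00827. After features near the random-probe level were removed, the dimmer one passed (limma adjusted p = 0.0462), as did 0.480% of the features kept. The exact permutation test, two-sided, gave p = 0.1 for each feature, the smallest that 3 against 3 arrays allow. The transcript remained well measured after knockdown, at 4.79 to 7.43 times the random-probe level on the brighter feature and 3.02 to 4.30 times on the dimmer one in shASPP2, against 10.2 to 15.4 times and 8.56 to 10.9 times in shNon. RNA of whole cultures does not tell a full knockdown in part of the cells from a partial one in all of them, nor fewer cells of a type from less RNA per cell.

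The targeted transcript was not the most strongly lowered on the array. A lower log2 fold change was found for 262 features (0.582%) than for NM_001031685, and for 84 features (0.187%) than for NM_005426. Ranked by limma's unadjusted p, the features stood at places 555 and 97 of all 45033.

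**Figure D1:**
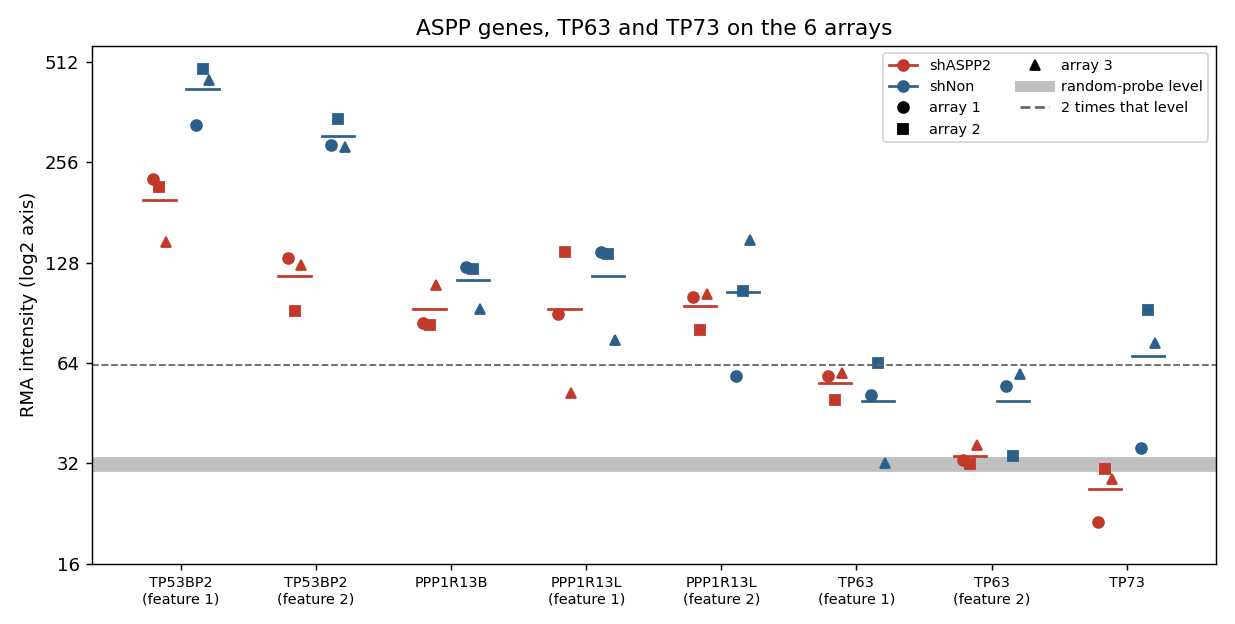
Deposited RMA intensity (log2 axis) of each feature on the 3 shASPP2 arrays (red, left) and the 3 shNon arrays (blue, right), with bars at the group means; feature 1 is the brighter of a pair, the grey band spans the random-probe level and the dashed line is 2 times its mean. The groups separate for both TP53BP2 features and for TP73, all but 1 of the TP63 points lie below the dashed line, and TP73 lies in or below the band on the shASPP2 arrays and above the dashed line on 2 shNon arrays.

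Of the 8 features, 0 passed the threshold in limma, where 0.138% of all features did. An unadjusted p under 0.05 was found for 3 of them (11.4% of all features), both TP53BP2 features and TP73. The groups did not overlap for the same 3 of 8 features, each lower in shASPP2, where 18.6% of all features had groups that did not overlap and 9.17% did so with shASPP2 lower. With trend and robust variance 2 of 8 passed, where 2.11% of all features did.

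PPP1R13B encodes ASPP1, the closest relative of ASPP2 and like it a coactivator of p53. Its single feature, NM_015316 (chromosome 14, 103269841 to 103383555), had 84.5, 83.4 and 110.0 in shASPP2, against 124.5, 122.1 and 92.8 in shNon. The groups overlapped, because array 3 was the highest of the shASPP2 arrays and the lowest of the shNon arrays. The log2 fold change was -0.29 (SE 0.210, 95% interval -0.78 to 0.20, limma adjusted p = 0.643). The interval holds losses down to 58.3% and gains up to 115% of the shNon signal. The feature lay at 2.74 to 3.58 times the random-probe level in shASPP2 and 2.79 to 3.85 times in shNon.

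PPP1R13L encodes iASPP, the inhibitory member. Its feature NM_006663 (chromosome 19, 50574735 to 50600129) had 89.9, 137.4 and 52.2 in shASPP2, against 138.1, 135.7 and 75.2 in shNon. Its feature AK130326 (50589750 to 50601407) had 101.1, 80.1 and 102.7 in shASPP2, against 58.6, 105.3 and 149.4 in shNon. The features disagreed on single arrays, most plainly on shNon array 3, the lowest shNon array on NM_006663 and the highest on AK130326. The log2 fold changes were -0.38 (SE 0.397, 95% interval -1.31 to 0.55, limma adjusted p = 0.756) on NM_006663 and -0.05 (SE 0.341, 95% interval -0.85 to 0.75, limma adjusted p = 0.969) on AK130326. The groups overlapped on both. NM_006663 lay at 1.70 to 4.52 times the random-probe level in shASPP2 and 2.26 to 4.27 times in shNon, lowest on array 3 of each group. AK130326 lay at 2.63 to 3.34 times in shASPP2 and 1.79 to 4.49 times in shNon, lowest on shNon array 1. The log2 fold change of NM_006663 was -0.01 without shASPP2 array 3 and -0.71 without shASPP2 array 2. That of AK130326 was 0.26 without shNon array 3 and -0.42 without shNon array 1. On the array's hg18 positions AK130326 overlaps the neighbouring gene POLR1G at its end, and the files do not show which part its probes read.

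**Figure D2:**
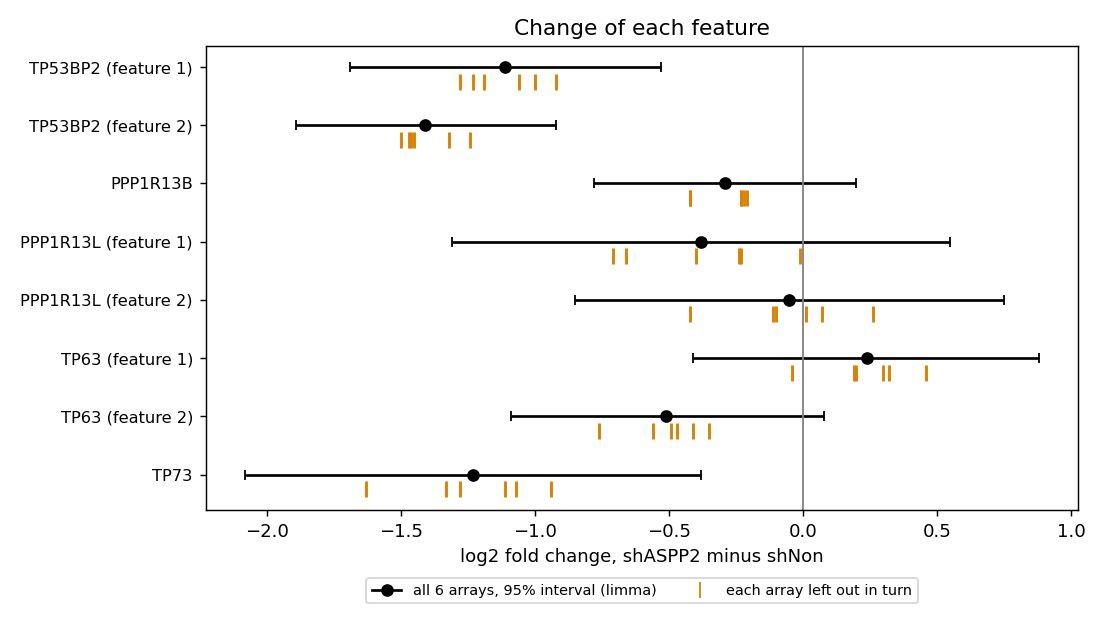
Log2 fold change of each feature, shASPP2 minus shNon (black, with limma's 95% interval), and its value when each of the 6 arrays is left out in turn (orange ticks). The intervals of both TP53BP2 features and of TP73 lie below 0, and those of the other 5 features include 0.

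Whether TP53BP2 changed more than its relatives was asked within arrays, on the log2 intensity of TP53BP2 (mean of its features) minus that of a relative. This was done for the 3 relatives with a feature above 2 times the random-probe level in at least 1 group, and p-values were adjusted over these 3 pairs. TP73 entered through the shNon arrays alone. Against PPP1R13B the difference was 1.04, 0.76 and 0.31 log2 in shASPP2 and 1.31, 1.75 and 1.95 log2 in shNon, without overlap. The change of TP53BP2 was thus lower by a further 0.97 log2 than that of PPP1R13B (difference of the log2 fold changes -0.97, SE 0.283, 95% interval -1.76 to -0.18). Against PPP1R13L the values were 0.86, 0.43 and 0.90 in shASPP2 and 1.78, 1.78 and 1.76 in shNon, also without overlap. That difference of the log2 fold changes was -1.05 (SE 0.152, 95% interval -1.47 to -0.62). The shNon values were nearly equal, although the PPP1R13L features ran in opposite directions over these arrays and were averaged. The SE and interval therefore hold for the mean of the features and not for a single one. The exact permutation p, two-sided, was 0.1 for both pairs, the smallest possible, and 0.15 after adjustment. With only the brightest feature of each gene it was 0.2 against PPP1R13B and 0.3 against PPP1R13L, and the groups overlapped.

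Against TP73 the comparison cannot show a like or an unlike change, because TP73 lay at 0.69 to 1.01 times the random-probe level on the shASPP2 arrays. The log2 difference was 3.03, 2.20 and 2.25 in shASPP2 and 3.12, 2.15 and 2.28 in shNon, and the groups overlapped. The difference of the log2 fold changes was -0.03 (SE 0.406, 95% interval -1.16 to 1.09, exact permutation p = 0.8, two-sided), a value bounded by that floor.

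**Figure D3:**
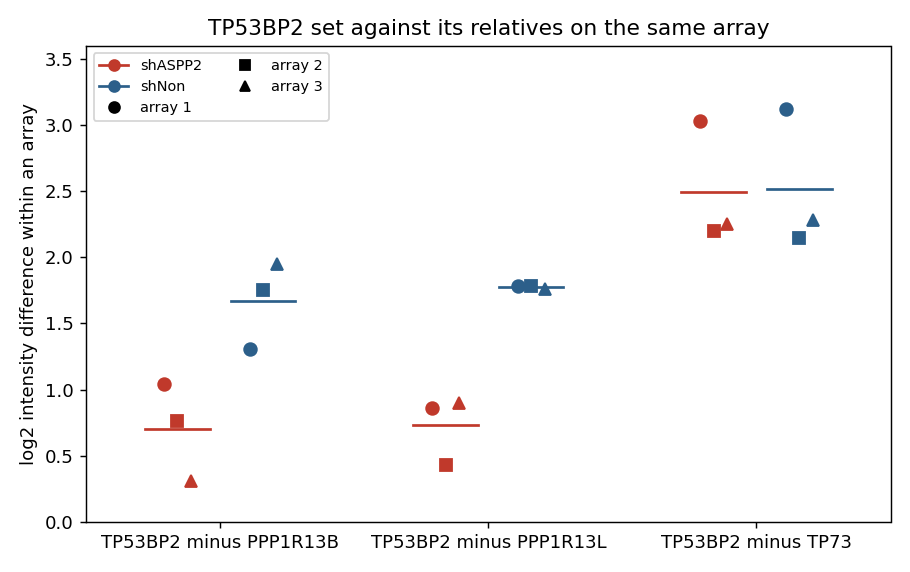
Log2 intensity of TP53BP2 minus that of a relative on the same array, for the 3 shASPP2 arrays (red, left) and the 3 shNon arrays (blue, right), with bars at the group means. The groups do not overlap against PPP1R13B and PPP1R13L, with shASPP2 lower. The groups overlap against TP73, whose shASPP2 signal is at the random-probe level.

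TP73 was lower in shASPP2, at a signal that reached the random-probe level. Its feature NM_005427 (chromosome 1, 3558988 to 3639716) had 21.3, 30.7 and 28.7 in shASPP2, against 35.5, 92.3 and 73.7 in shNon. The groups did not overlap, but shNon array 1 was much closer to the shASPP2 arrays than to the other shNon arrays. Set against the random probes, TP73 stood at 0.69 to 1.01 times their level in shASPP2. In shNon it stood at 1.09, 2.91 and 2.22 times. The log2 fold change was -1.23 (SE 0.364, 95% interval -2.08 to -0.38, limma adjusted p = 0.298), and it did not pass with trend and robust variance either (adjusted p = 0.120). Without shNon array 1 it was -1.63, and without shNon array 2 it was -0.94. Because the shASPP2 signal is at the floor, the size of the difference is not a measure of how much transcript was lost.

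TP63 was not detectable above 2 times the random-probe level on 5 of 6 arrays for its feature AB016073 and on any array for its feature NM_003722. AB016073 (chromosome 3, 190831970 to 191095181) had 58.4, 49.4 and 59.6 in shASPP2, against 51.2, 64.1 and 32.0 in shNon. NM_003722 (190831909 to 191097759) had 32.8, 31.8 and 36.4 in shASPP2, against 54.5, 33.6 and 59.2 in shNon. The features moved in opposite directions, with log2 fold changes of 0.24 (SE 0.276, limma adjusted p = 0.781) and -0.51 (SE 0.249, limma adjusted p = 0.498). The groups overlapped on both, and neither passed the test. Squamous and basal markers, outside the naming rule, were mixed beside it. COL17A1, a hemidesmosome collagen gene, had 857.6 to 891.1 in shASPP2 and 809.7 to 1226.5 in shNon. The keratin gene KRT5 had 61.5 to 88.5 in shASPP2 and 50.1 to 108.8 in shNon. For the desmoglein gene DSG3 it was 28.5 to 37.3 in shASPP2 and 26.7 to 32.5 in shNon. Groups did not overlap for 2 of the 10 markers (20.0%, against 18.8% of all genes), both higher in shASPP2. These were the keratin genes KRT6A (log2 fold change 0.79, limma adjusted p = 0.412) and KRT13 (0.74, limma adjusted p = 0.3). Both lay under 2 times the random-probe level on every shNon array.

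The wider pathway was described with 5 lists holding 90 genes, each gene standing as its brightest feature. Of these, 0 passed the threshold in limma over all features, where 0.140% of all genes did. With trend and robust variance 3 passed (2.28% of all genes), CDKN1A, SFN and ITGB4. An unadjusted p under 0.05 was found for 15 of 90 genes (16.7%, against 11.6% of all genes). The groups did not overlap for 24 of 90 (26.7%, against 18.8% of all genes). The median log2 fold change over the 90 genes was 0.05, against 0.01 over all genes.

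Among 19 binding partners of ASPP proteins the median was 0.00 and 16 lay above 2 times the random-probe level in at least 1 group. Protein phosphatase 1 catalytic subunits, named for their role and outside the naming rule, had log2 fold changes of -0.04 for PPP1CA, 0.00 for PPP1CB and 0.05 for PPP1CC (SE 0.175 to 0.197). The polarity gene PARD3 was also near 0, at 0.02 (SE 0.169). The smallest p-values belonged to CCDC85C, RASSF10 and RASSF9. CCDC85C encodes a coiled-coil protein that forms complexes with ASPP proteins and protein phosphatase 1. It had 335.8, 203.9 and 458.7 in shASPP2, against 215.3, 158.9 and 125.2 in shNon, with overlapping groups (log2 fold change 0.96, SE 0.340, limma adjusted p = 0.363). RASSF10 and RASSF9, of the N-terminal RASSF group that holds ASPP-binding proteins, had -0.56 and -0.68, both at signals under 2 times the random-probe level on every array.

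Among 24 regulators of the p53 family the median was 0.13, and the groups did not overlap for 4 genes higher and 4 lower in shASPP2 (33.3%, against 18.8% of all genes). MDM4, which encodes an inhibitor of p53 related to MDM2, had 651.1, 555.0 and 490.4 in shASPP2, against 742.7, 929.2 and 870.4 in shNon. Its log2 fold change was -0.59 (SE 0.193, limma adjusted p = 0.338), with -0.50 to 0.09 on its other 5 features. CREBBP, an acetyltransferase that serves p53 as coactivator, had 0.55 (SE 0.191, limma adjusted p = 0.355). JMY, a p300 cofactor that promotes the p53 response, had 0.50 (SE 0.177, limma adjusted p = 0.363), with 72.7, 73.5 and 85.9 in shASPP2, against 60.4, 53.4 and 50.6 in shNon, where it lay under 2 times the random-probe level. E2F1, known to activate transcription of TP73 and of the ASPP1 and ASPP2 genes and named here for that role, had 0.47 (SE 0.222) with overlapping groups.

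Apoptosis genes downstream of the p53 family, the class that ASPP proteins are known for, numbered 17 and had a median of 0.11. Groups did not overlap for 2 genes higher and 2 lower (23.5%, against 18.8% of all genes). APAF1, the scaffold of the apoptosome, had 315.2, 351.9 and 266.9 in shASPP2, against 251.5, 202.0 and 192.4 in shNon (log2 fold change 0.53, SE 0.199, limma adjusted p = 0.386). AIFM2, a quinone oxidoreductase of the AIF family, had -0.49 (SE 0.189, limma adjusted p = 0.393), and its other feature pointed the other way at 0.35. TP53I3, another quinone oxidoreductase, had 0.42 (SE 0.209). Both BAX and TP53I3 are known targets whose activation by p53 is stimulated by ASPP2. BAX, outside the naming rule, had 0.11 (SE 0.205, 95% interval -0.37 to 0.59), and the 95% interval of TP53I3 was -0.07 to 0.91.

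Among 11 arrest and repair targets the median was 0.01, with 3 genes higher and 1 lower without overlap (36.4%, against 18.8% of all genes). CDKN1A, the p21 cell cycle inhibitor, had 1153.7, 1374.6 and 1066.4 in shASPP2, against 792.5, 540.0 and 355.7 in shNon. Its log2 fold change was 1.16 (SE 0.302, limma adjusted p = 0.253, and 0.0134 with trend and robust variance), and its other feature had 1.29. SFN, which encodes the 14-3-3 sigma protein, had 12586.0, 14674.8 and 11211.8 in shASPP2, against 6928.2, 8866.7 and 8207.8 in shNon. Its log2 fold change was 0.68 (SE 0.194, limma adjusted p = 0.283, and 0.00465 with trend and robust variance), with 0.72 to 0.83 on its other 3 features. SESN2, a leucine sensor induced by stress, had 0.72 (SE 0.250, limma adjusted p = 0.359) and 0.73 on its other feature. All features of these 3 genes pointed towards higher signal in shASPP2.

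The 19 genes linked to p63 or p73 had a median of 0.08, and 13 lay above 2 times the random-probe level in at least 1 group. ITGB4, the hemidesmosome integrin subunit and a p63 target in epithelia, had 3470.6, 4068.9 and 4139.2 in shASPP2, against 5698.0, 6281.5 and 6213.1 in shNon. Its log2 fold change was -0.64 (SE 0.172, limma adjusted p = 0.259, and 0.00634 with trend and robust variance), with -0.78 and -0.70 on its other features. RFX2, a factor of cilium genes, had -0.61 (SE 0.233) on the brighter feature and 0.04 on the other. S100A2, a calcium-binding protein gene activated by p63 in keratinocytes, had 0.41 (SE 0.204, limma adjusted p = 0.506) with overlapping groups. Its other features had 0.09 and 1.26.

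**Figure D4:**
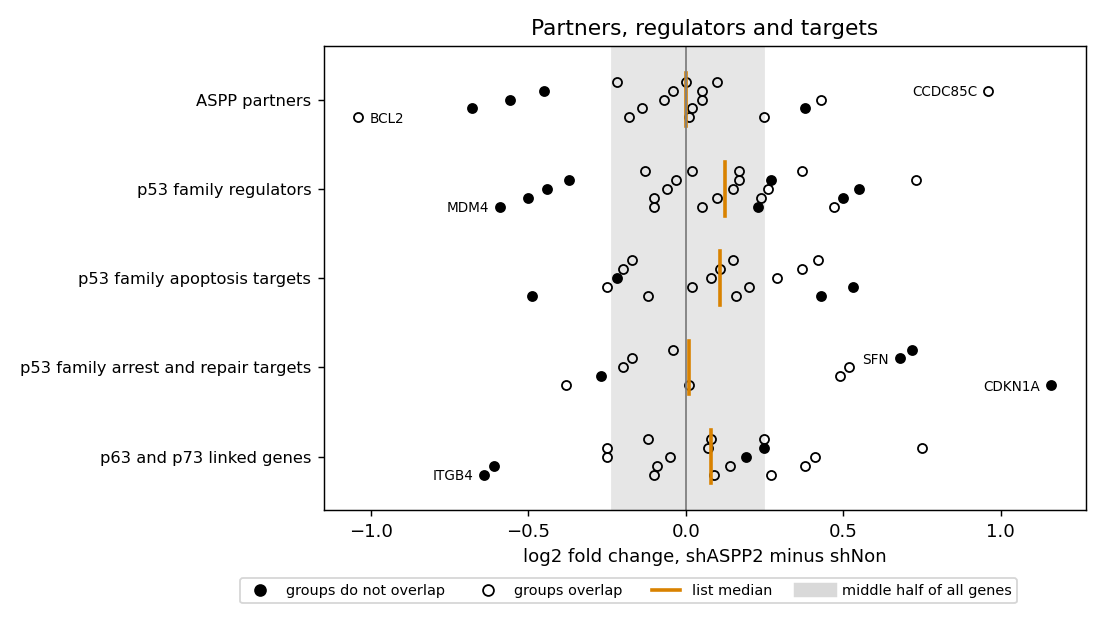
Log2 fold change, shASPP2 minus shNon, of each gene in the 5 lists (1 point per gene, filled where the groups' arrays do not overlap), with the list median in orange and the middle 50% of all genes shaded. List medians lie between 0.00 and 0.13, and CDKN1A lies farthest to the right at 1.16.

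Likeness to TP53BP2 was measured as Pearson's r of log2 intensity over the 6 arrays with the mean of its features, among 25237 named features above 2 times the random-probe level in at least 1 group. These values describe 6 arrays that share 1 contrast, and 240 features had r over 0.95 and 198 had r under -0.95. The most alike were SYBU (r = 0.996), WSB1 (0.993), SLC40A1 (0.992), IGFBP3 (0.992) and LANCL1 (0.992). IGFBP3, which carries insulin-like growth factors in plasma, had 1551.6, 1315.3 and 1397.2 in shASPP2, against 3372.3, 4099.4 and 4007.0 in shNon, and fell (log2 fold change -1.43, SE 0.178, limma adjusted p = 0.0486, and 0.117 to 0.321 when 1 array was left out). SLC40A1, the iron exporter ferroportin, had 1331.2, 1041.1 and 1150.6 in shASPP2, against 1981.7, 2339.2 and 2123.6 in shNon (-0.88, SE 0.182, limma adjusted p = 0.185). The second features of SLC40A1 and IGFBP3 had r of 0.959 and 0.955, while that of SYBU had only 0.590. The most opposite were FLNC (r = -0.998), GPC1 (-0.995), KLF10 (-0.994), MVD (-0.992) and PEX26 (-0.991). FLNC, which encodes filamin C, had 187.6, 254.3 and 242.7 in shASPP2, against 75.9, 50.0 and 55.2 in shNon, and rose (1.93, SE 0.230, limma adjusted p = 0.0455). The FLNC call was lost with median centring, cyclic loess, random-probe subtraction (2.92) or 1 array left out (limma adjusted p = 0.0603 to 0.315), and its shNon signal was near 2 times the random-probe level. On its other feature r was -0.808. Among the relatives, r with TP53BP2 was 0.845 for TP73, 0.527 for PPP1R13B, 0.363 and 0.186 for the PPP1R13L features, and -0.289 and 0.564 for the TP63 features. The features of TP53BP2 correlated with each other at r = 0.874.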

How the data were processed

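The authors deposited 1 linear intensity per feature and array. Per the submitters' processing notes it came from RMA, with no settings stated. RMA evens out array distributions and compresses dim signals, so fold changes near the random-probe level may not show the true size. Total RNA per cell is not seen. The values of the series matrix, also deposited, differed in 0 cells. Features were named through gene identifiers in a RefSeq table of GRCh38.p14, and positions are the files' hg18.

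Log2 intensities of all 45033 features were fitted with limma 3.58.1 in R 4.3.3, on group alone, with Benjamini-Hochberg adjustment over all features and a threshold of 0.05. The fit was checked on simulated data, where it called 0% of true 1.5-fold and 2-fold changes. It called 60% of 4-fold and 86% of 8-fold changes, and 0.009% of unchanged features. A feature that did not pass is therefore not shown to be unchanged. The simulation changed few features and drew noise independently for each, so its rates need not hold on the real arrays. Single values were also compared by exact permutation (smallest two-sided p = 0.1). The 3 arrays per group limit precision, and SDs are over these arrays.

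The members and lists were chosen with earlier results of these data known. The text names all member features, and each list's genes past the threshold and its 3 smallest p-values. It also names the 5 genes most and least like TP53BP2, leaving out locus and clone names. Others are marked, and cell type markers stand outside this rule. Same-numbered samples did not deviate together (correlations 0.06, -0.08 and -0.13), so no pairing was used. Alternatives were the value table, gene level, a replicate block, array weights, limma's trend and robust options, a filter on dim features, subtraction of the random-probe level (floor 8), cyclic loess, median centring and leaving out each array.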

Additional observations from a re-analysis of the deposited data

How the results depend on the processing

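With 6 arrays, calls depended on how limma estimates the spread. With trend and robust variance 2 of 8 member features passed, both of TP53BP2 (log2 fold changes -1.11 and -1.41, adjusted p = 0.0225 and 0.00827), as did 3 pathway genes and 952 features in all. After the filter on dim features NM_005426 passed (-1.41, adjusted p = 0.0462), 1 of 8 member features and 136 of all, where fewer features are tested. All features past the threshold numbered 62, and 33 of the brightest features of each gene were among them. At gene level, where only those brightest features are fitted, 24 passed. The number over all features was 103 after subtraction of the random-probe level and 0 with the replicate block. It was between 0 and 17 when 1 array was left out, where fewer arrays are fitted. With the replicate block the TP53BP2 features kept -1.11 and -1.41, with limma adjusted p = 0.475 and 0.417. The numbers did not pair the samples, and no member was called with or without the block. Without 1 array TP53BP2 had -1.28 to -0.92 and -1.50 to -1.24. PPP1R13L on AK130326 changed sign, to 0.04 with array weights and 0.06 after subtraction, and ranged between -0.42 and 0.26 without 1 array. TP63 on AB016073 ranged between -0.04 and 0.46 without 1 array. The change of TP53BP2 minus that of TP73 was 0.28 after subtraction, 0.11 on the brightest features and -0.30 to 0.27 without 1 array, where the random-probe level bounds TP73 in shASPP2 and the sign carries no information. Against PPP1R13B it stayed between -1.15 and -0.78, and against PPP1R13L between -1.21 and -0.74. The separation of the groups was less stable than the sign. On the brightest features the values were -0.83 and -0.74, with overlapping groups (exact permutation p = 0.2 and 0.3, two-sided). Against PPP1R13B the exact permutation p was also 0.2 without shASPP2 array 3 (-0.78) or shNon array 3 (-0.83). In those 2 settings the groups still did not overlap. Near 0, signs turned without 1 array for PPP1CA, PPP1CB, PPP1CC, PARD3 and BAX, and with median centring for PARD3 (-0.01); their ranges without 1 array were -0.11 to 0.08, -0.09 to 0.14, -0.04 to 0.11, -0.02 to 0.09 and -0.01 to 0.26 in that order. The causes were not tested. Signal near the random probes limits TP63 and TP73 in every setting.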

Other observations

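Genes with many features gave a view of how far features of 1 transcript family agree on these arrays. MDM2, the ubiquitin ligase of p53, had 13 features, and its brightest had 162.5, 105.2 and 123.2 in shASPP2, against 166.7, 199.6 and 178.4 in shNon (log2 fold change -0.50, SE 0.215, limma adjusted p = 0.444). Its other 12 features ranged between -0.90 and 0.23. PML, the nuclear body protein gene, had 18 features, with 0.37 on the brightest and 0.01 to 1.03 on the others.

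BCL2, which encodes a survival protein that ASPP2 is known to bind, had the lowest log2 fold change among the ASPP partners (-1.04, SE 0.604, limma adjusted p = 0.565). It had 42.9, 38.7 and 47.4 in shASPP2, against 254.2, 65.0 and 41.1 in shNon. This was under 2 times the random-probe level on every shASPP2 array and above it on 2 shNon arrays. Without shNon array 1, the highest, the log2 fold change was -0.27. The other features of BCL2 had -0.44 and 0.16. These genes were picked after their values were seen.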
